A study of Mus musculus with 6 samples.

Results

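The immediate early genes described here are 10 genes chosen by symbol, namely the zinc finger factors Egr1, Egr2 and Egr3, the bZIP factors Fos, Fosl1, Jun and Junb, and Ier2, Ier3 and Phlda1. Their level was taken from the array probes annotated to exactly 1 of these symbols, which measured 9 of the 10, out of 22180 genes measured in this way. The probe for Fosl1 is annotated to a second gene as well, so Fosl1 has no value here. Each of the 9 measured genes had 1 probe. RNA came from EB3 mouse embryonic stem cells (mESC), held in N2B27 medium with LIF and BMP4, and from epiblast-like cells (EpiLC) that had been derived from them over 2 days in N2B27 with bFGF at 12 ng/ml and Activin A at 20 ng/ml. In each state 1 array was of cells given 3 µM CHIR99021 and 1 µM PD0325901 for 24 hours, 1 of cells given 3 µM CHIR99021 alone for 24 hours, and 1 of untreated cells. CHIR99021 (CHIR) inhibits the kinase GSK3 and thereby stabilises beta-catenin, and PD0325901 (PD) inhibits MEK, the kinase that activates ERK1/2. No array had PD alone, so an effect of PD is seen only on top of CHIR. Each of the 6 combinations was 1 Affymetrix array, with no replicates, and when in the 2 days of induction the inhibitors were given is not stated in the labels.

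Immediate early genes are transcribed within minutes of a stimulus, without new protein synthesis, by factors already present in the cell. ERK phosphorylates ternary complex factors such as Elk1, which sit with serum response factor (SRF) on promoters of Egr and Fos genes, whereas Jun is also driven through the stress kinases JNK and p38. In pluripotent cells FGF4 signals through ERK, and Egr1 is one of the transcripts read as an output of that pathway. After a stimulus these transcripts peak and decline, and these arrays hold 1 time point only.

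Values are the authors' normalized intensities on a linear scale, whose lowest value on every array was 16, and differences are on the log2 scale. The 6 arrays had median intensities of 60.5 to 65.2. The naive marker Esrrb had intensities of 21.4 to 33.7 on EpiLC arrays and 357 to 524 on mESC arrays. The EpiLC marker Fgf5 was at 39.4 in EpiLC with CHIR and PD, close to the 19.9 to 36.0 of mESC. It was at 770.0 in EpiLC with CHIR and 1258.5 in untreated EpiLC. In EpiLC 3 of 4 EpiLC markers were lower with CHIR and PD than with CHIR, and 1, Pou3f1, was higher (145 against 123). Dnmt3b with CHIR and PD was at 788 in EpiLC and 817 in mESC, and with CHIR at 1279 and 1289. The summed intensity of 5 mesoderm and primitive streak markers was 367 in EpiLC with CHIR and PD, 10472 in EpiLC with CHIR and 705 in untreated EpiLC, against 227 to 538 on the mESC arrays. In mESC the summed intensity of the 4 EpiLC markers was 949 with CHIR and PD, 1445 with CHIR and 2895 untreated. That of 5 naive markers in mESC was 5611, 4627 and 3636 in the same order. The arrays of both states thus differ in marker content as well as in treatment. The part of these markers in the results below was not tested. In bulk RNA a lower level per cell and fewer cells with the transcript cannot be told apart.

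Egr1, an early growth response factor that binds GC-rich promoter sites, was the member with the widest range over the arrays. Its intensity in EpiLC was 32.1 with CHIR and PD, 276 with CHIR and 308 untreated. In mESC it was 25.7 with CHIR and PD, 87.6 with CHIR and 109 untreated. Both arrays with PD lay below all 4 arrays without it, and the EpiLC value was above the mESC value under each treatment. With PD added to CHIR, Egr1 was lower by a factor of 8.57 in EpiLC and 3.41 in mESC (log2 differences of -3.10 and -1.77, 1 array against 1 array). The PD values lie near the lowest value of 16, and with that constant at 4 or 64 the log2 difference was -3.71 or -2.01 in EpiLC and -2.46 or -0.88 in mESC. Egr1 was the only member at least 2-fold lower in EpiLC (1.01% of all genes) and in mESC (0.523%), and 0.153% of all genes were so in both. With the constant at 64 Egr1 was no longer 2-fold lower in mESC, and with it at 4 Phlda1 was (-1.08). In the additive limma model of state and treatment over the 6 arrays its difference was -2.43 (SE 0.33), with an unadjusted p of 0.000381 and an adjusted p of 0.367, so it did not pass the threshold of 0.05. In that model the residual, with 2 degrees of freedom, is the departure from equal effects in both states. Without mESC with CHIR and PD the difference was -3.06 (limma adjusted p = 0.00661), and without EpiLC with CHIR and PD it was -1.81 (limma adjusted p = 0.139). Either leaves 1 array with PD and 1 residual degree of freedom from the other groups, so that array is assumed to vary like them. Over all alternatives the adjusted p ran up to 0.885.

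**Figure D1:**
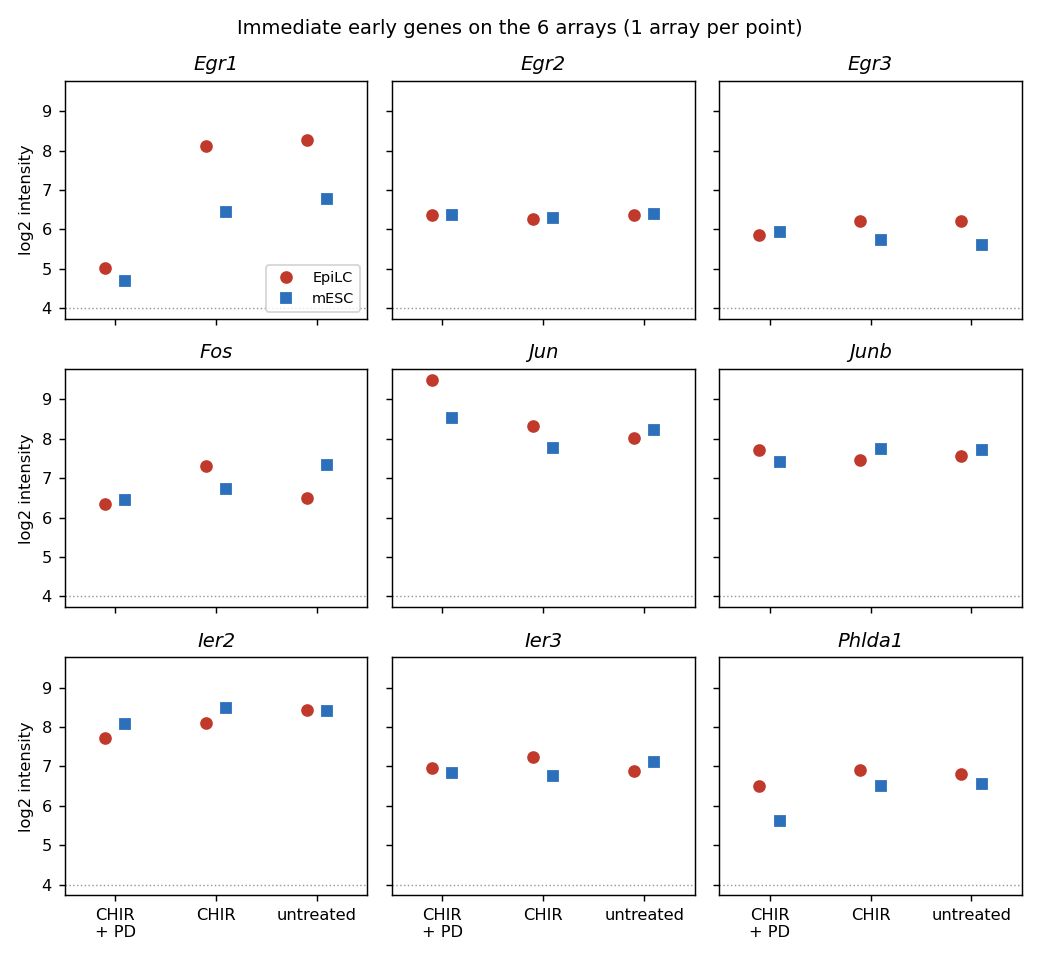
Intensity of the 9 measured immediate early genes, on the log2 scale (y axis), by treatment (x axis), with EpiLC as red circles and mESC as blue squares, 1 array per point. The dotted line marks the lowest value of the deposited table (16, or 4 on the log2 scale). Egr1 has both CHIR and PD points near the bottom, Jun has both above its other points, and Egr2 is nearly flat.

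The other Egr genes did not follow Egr1. Egr2, a paralog known for its role in hindbrain patterning and myelination, had intensities of 82.5 with CHIR and PD, 77.0 with CHIR and 82.8 untreated in EpiLC. In mESC the values were 82.1, 78.5 and 83.2 in the same order. The SD of Egr2 over the 6 arrays was 0.05 on the log2 scale, lower than for all but 0.640% of genes. Egr3, a paralog studied mostly in lymphocytes and muscle spindles, had intensities of 57.8, 74.8 and 73.8 in EpiLC with CHIR and PD, with CHIR and untreated. In mESC its values were 61.1, 53.2 and 48.5 in the same order. Egr3 was thus lower by 0.37 in EpiLC (log2 difference -0.37) and higher by 0.20 in mESC when PD was added. The fitted differences of Egr2 (0.08, SE 0.12) and Egr3 (-0.08, SE 0.19) did not pass the limma threshold (adjusted p = 0.941 and 0.962). The Egr2 signal lay close to the median gene of the arrays (77.5 to 80.1). Whether its probe detected the transcript was not tested. One RefSeq promoter window of Egr2 is shown because it holds a CArG box, the site of SRF, 72 to 63 bases before the start. The window runs from 250 bases before to 50 after the start (chr10:67537619-67537918, GRCm38.p6, plus strand), and capitals mark the CArG box and, after it, ACGTCA, the reverse complement of the short form TGACGT of the cyclic AMP response element (CRE).
Egr2: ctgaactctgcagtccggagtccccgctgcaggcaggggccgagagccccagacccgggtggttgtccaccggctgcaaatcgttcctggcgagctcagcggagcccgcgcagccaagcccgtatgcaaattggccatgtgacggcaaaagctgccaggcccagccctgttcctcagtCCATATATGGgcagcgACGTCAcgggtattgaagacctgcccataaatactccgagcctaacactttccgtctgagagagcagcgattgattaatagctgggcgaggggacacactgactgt

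Fos, the bZIP partner of Jun proteins in the AP-1 dimer, was low on both arrays with PD, but its values without PD differed between the states. In EpiLC its intensity was 81.9 with CHIR and PD, 158 with CHIR and 90.6 untreated. In mESC it was 86.5 with CHIR and PD, 106 with CHIR and 163 untreated. Both PD arrays were below all 4 others, although the lowest of those 4, untreated EpiLC, was close to them. The log2 difference with PD added to CHIR was -0.95 in EpiLC and -0.29 in mESC, and the fitted value was -0.62 (SE 0.32, limma adjusted p = 0.847). Over alternatives that leave out 1 array the fitted value ran between -1.14 and -0.10, the last without the array of EpiLC with CHIR. The RefSeq promoter window of Fos (chr12:85473640-85473939, GRCm38.p6, plus strand) is shown with, in capitals, the short CRE form TGACGT that it holds 66 to 61 bases before the start.
Fos: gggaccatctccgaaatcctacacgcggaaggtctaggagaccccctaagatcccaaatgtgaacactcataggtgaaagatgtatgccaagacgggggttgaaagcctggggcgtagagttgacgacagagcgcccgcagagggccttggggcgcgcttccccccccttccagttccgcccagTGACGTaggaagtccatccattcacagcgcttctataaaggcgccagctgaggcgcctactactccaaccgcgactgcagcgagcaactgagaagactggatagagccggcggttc

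Jun, the AP-1 subunit that can also dimerise with itself, had its higher values where Egr1 had its lower ones. Its intensity in EpiLC was 719 with CHIR and PD, 321 with CHIR and 261 untreated. In mESC it was 369 with CHIR and PD, 219 with CHIR and 297 untreated. Both PD arrays were above all 4 others. With PD added to CHIR the log2 difference was 1.16 in EpiLC, the only member at least 2-fold higher there (as were 1.04% of all genes), and 0.75 in mESC, where 0 members were (0.252%). The fitted difference was 0.96 (SE 0.27, unadjusted p = 0.0134, limma adjusted p = 0.782). Set against untreated cells, CHIR with PD gave 1.46 in EpiLC and 0.32 in mESC, with a fitted value of 0.89 (SE 0.27, limma adjusted p = 0.256) that ran between 0.42 and 1.36 over the alternatives, the ends being without the arrays of EpiLC and of mESC without treatment. Junb, a paralog with weaker activating function in AP-1, had intensities of 212, 176 and 191 in EpiLC with CHIR and PD, with CHIR and untreated. In mESC Junb was at 172, 212 and 208 in the same order. It was higher by 0.27 in EpiLC and lower in mESC (log2 difference -0.31) with PD added, and its fitted difference of -0.02 (SE 0.17, limma adjusted p = 0.992) was 0.0063 when each array was centred on its median. The Jun promoter window (chr4:95052173-95052472, GRCm38.p6, minus strand) holds, in capitals, the CRE variant TGACATCA, 45 to 38 bases before the start, and a MEF2 box 33 to 24 bases before the start.
Jun: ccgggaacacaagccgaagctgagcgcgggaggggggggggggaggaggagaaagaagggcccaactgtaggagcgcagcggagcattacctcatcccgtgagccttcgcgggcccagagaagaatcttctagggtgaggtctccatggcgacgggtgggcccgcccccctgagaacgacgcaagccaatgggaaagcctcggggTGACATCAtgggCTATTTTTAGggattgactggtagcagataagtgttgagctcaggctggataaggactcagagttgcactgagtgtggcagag

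RefSeq windows of this kind were matched for 5 of the 9 measured members (Egr2, Fos, Ier3, Jun and Junb). Motifs were searched on both strands as a CArG box, a MEF2 box, the full CRE TGACGTCA, the short form TGACGT that overlaps it, the variant TGACATCA, the AP-1 site TGANTCA, the ETS core CCGGAA and the EGR site GCGNGGGCG. The CArG box was in windows of 1 of the 5 members (1.81% of the 27025 genes with a window), the MEF2 box in 1 (0.636%), the short CRE form in 2 (8.37%), the variant TGACATCA in 1 (4.18%), and CCGGAA in 1, Egr2 (16.7%). The full CRE (2.03%), the AP-1 site (8.97%) and the EGR site (6.27%) were in 0 of the 5. A gene was counted if any of its windows held a match, and Egr2 had more than 1 window. Its CCGGAA matches lay in another window (chr10:67537316-67537615) than the one shown. A match describes these letters in this window and no binding. Sequence beyond 250 bases before or 50 after the start was not searched, so 0 matches do not mean that a gene lacks a site.

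Ier2, Ier3 and Phlda1 encode small immediate early proteins of other kinds. Ier2, a nuclear protein linked to cell motility, had intensities of 213 with CHIR and PD, 274 with CHIR and 345 untreated in EpiLC. In mESC Ier2 was at 268, 360.2 and 340.4 in the same order. Both PD arrays of Ier2 were below all 4 others, by a small margin from EpiLC with CHIR. Its fitted difference with PD added to CHIR was -0.40 (SE 0.15, unadjusted p = 0.0416, limma adjusted p = 0.843). Ier3, a stress-inducible protein that modulates apoptosis and ERK signalling, had intensities of 125 with CHIR and PD, 149.9 with CHIR and 117 untreated in EpiLC. In mESC Ier3 was at 114, 108 and 139 in the same order, so the groups overlapped. Its fitted difference was -0.09 (SE 0.19, limma adjusted p = 0.958) with single differences of -0.27 in EpiLC and 0.09 in mESC.

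Phlda1, a pleckstrin homology-like domain protein, had its lowest level in mESC with both inhibitors. Its intensity in EpiLC was 90.8 with CHIR and PD, 119 with CHIR and 113 untreated. In mESC it was 49.3 with CHIR and PD, 90.8 with CHIR and 93.4 untreated. The EpiLC array with PD was thus level with mESC under CHIR, and EpiLC was above mESC under each treatment. The log2 difference with PD added was -0.39 in EpiLC and -0.88 in mESC, an order of the states opposite to that of Egr1, and the difference between the states was not tested. The fitted value was -0.64 (SE 0.18, unadjusted p = 0.0135, limma adjusted p = 0.784).

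**Figure D2:**
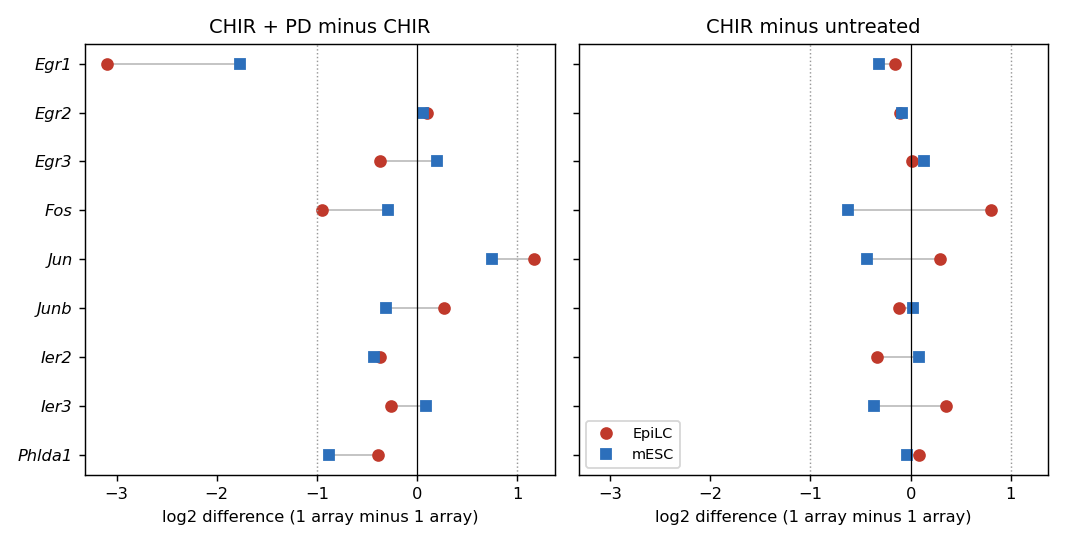
Log2 difference of each immediate early gene (y axis) for CHIR with PD minus CHIR (left) and CHIR minus untreated (right), 1 array minus 1 array, in EpiLC (red circles) and mESC (blue squares), with dotted lines at 2-fold. Egr1 at -3.10 and -1.77 is the only gene past 2-fold in both states, and Fos has the widest gap between the states in the right panel.

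Over the 9 members, 0 rose and 0 fell with PD added to CHIR at a limma adjusted p under 0.05, where 0% of all genes rose and 0.018% fell. In single pairs of arrays 3 of 9 had opposite signs in the states (45.6% of all genes). At an unadjusted p under 0.05, 1 was higher (Jun; 2.94% of all genes) and 3 were lower (Egr1, Ier2 and Phlda1; 2.84%). The median fitted difference of the members was -0.09, against -0.01 over all genes. Of the 9, 4 had both PD arrays below all arrays without PD (Egr1, Fos, Ier2 and Phlda1; 8.44% of all genes) and 1 had both above (Jun; 5.34%). Phlda1 enters that count only by its unrounded values, since EpiLC with both inhibitors and mESC with CHIR were level at 90.8, and 3 remain without it. For CHIR with PD against untreated cells, 0 rose and 0 fell (0% and 0.0271% of all genes). At an unadjusted p under 0.05 in that comparison, 1 was higher (7.46%) and 3 were lower (6.85%), again Jun against Egr1, Ier2 and Phlda1, and 3 of 9 had opposite signs in the states (42.7%). The 2 comparisons share the arrays with CHIR and PD. Egr1 was at -2.67 there (SE 0.33, limma adjusted p = 0.112). Over the alternatives that adjusted p ran between 0.00463 (without mESC with CHIR and PD) and 0.523 (no moderation), with 0.0383 without either array with CHIR alone, 0.522 without untreated EpiLC and 0.126 without untreated mESC. The difference was -2.05 without EpiLC with CHIR and PD.

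Feedback genes of ERK signalling give a measure of the pathway on the same arrays. Of 11 such genes (Sprouty, Spred, Dusp, Etv4, Etv5 and Il17rd), 4 fell in limma with PD added to CHIR (0.018% of all genes). In that comparison 0 rose (0%), and all 11 were lower in both states, as were 29.5% of all genes. Their median difference was -1.79. The ERK phosphatase gene Dusp6 had intensities of 53.8 in EpiLC and 37.5 in mESC with CHIR and PD, against 302 in EpiLC and 177 in mESC with CHIR, and fell by 2.36 (SE 0.13, limma adjusted p = 0.0205). Egr1 thus had a fitted difference as large as that of Dusp6 but with a wider error. Dusp6 fell least of the 4 feedback genes past the threshold, among which the lowest difference was -3.99. Of the 11, 10 had both PD arrays below all 4 others, all but Il17rd (8.44% of all genes). This list was chosen with its behaviour on these arrays known and is no independent evidence of a direction.

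A wider list of 40 other immediate early genes had values on both sides of 0. With PD added to CHIR 0 of the 40 passed the limma threshold in either direction, and at an unadjusted p under 0.05 8 were higher (2.94% of all genes) and 4 lower (2.84%), with a median of 0.03. Gadd45b, a stress-induced growth arrest gene, had intensities of 1255 in EpiLC and 746 in mESC with CHIR and PD, against 221 in EpiLC and 252 in mESC with CHIR. Its fitted difference was 2.04 (SE 0.39, limma adjusted p = 0.605), and it was higher in both states. Myc, a growth-promoting bHLH factor, was at 150.4 in EpiLC and 169.9 in mESC with CHIR and PD, 276 in EpiLC and 439 in mESC with CHIR, and 721 in EpiLC and 709.9 in mESC without treatment. Zfp36l2, an mRNA decay factor, was at 268 in EpiLC and 353 in mESC with CHIR and PD, against 582 in EpiLC and 601 in mESC with CHIR.

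**Figure D3:**
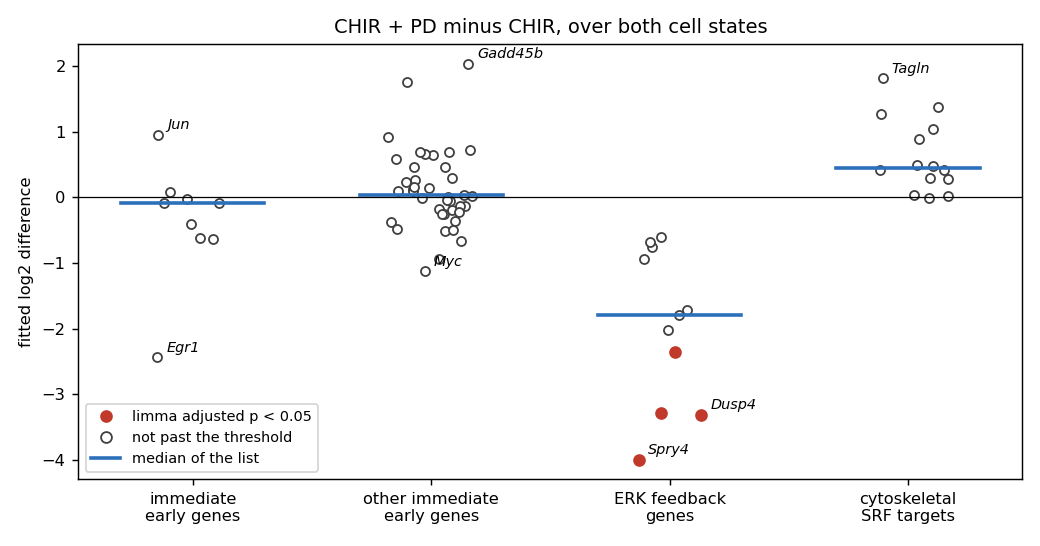
Fitted log2 difference of CHIR with PD minus CHIR over both states (y axis) for each measured gene of 4 lists (x axis), with filled red points past the limma threshold, open points not past it and blue bars at the list medians. The 11 ERK feedback genes all lie below 0 with a median of -1.79, whereas 8 of the 9 immediate early genes lie within 1 of 0 and Egr1 lies at -2.43.

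Other genes of the AP-1 families were mostly near 0. Of 13 such genes 0 passed the limma threshold with PD added to CHIR, 3 were higher at an unadjusted p under 0.05 (2.94% of all genes) and 0 were lower (2.84%), with a median of 0.03. Those 3 were Atf3 (0.72, SE 0.19), Jund (0.67, SE 0.18) and Fosl2 (0.65, SE 0.15). All 3 are also in the list of 40 other immediate early genes and were counted among its higher genes above. Jund was at 437 in EpiLC and 260.2 in mESC with CHIR and PD, against 232 in EpiLC and 194 in mESC with CHIR. Atf3, a stress-induced repressor of the Atf family, was at 435 in EpiLC and 175 in mESC with CHIR and PD, against 246 in EpiLC and 114 in mESC with CHIR.

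SRF also controls cytoskeletal genes, together with actin-regulated cofactors. With PD added to CHIR 0 of 14 passed the limma threshold, 7 were higher at an unadjusted p under 0.05 (2.94% of all genes), and 10 were higher in both states (24.9% of all genes), with a median of 0.45. Tagln, which encodes the actin-binding protein transgelin, was at 1607 in EpiLC and 408 in mESC with CHIR and PD, against 343 in EpiLC and 154 in mESC with CHIR. Srf itself was at 562 in EpiLC and 329.6 in mESC with CHIR and PD, against 480.5 in EpiLC and 315 in mESC with CHIR. The ternary complex factor gene Elk3 was at 49.9 in EpiLC and 43.9 in mESC with CHIR and PD, against 76.6 in EpiLC and 96.0 in mESC with CHIR. The summed intensity of 9 fibroblast markers, which include the smooth muscle actin gene Acta2 of the cytoskeletal list, was 1703 in EpiLC and 915 in mESC with CHIR and PD, against 908 in EpiLC and 724 in mESC with CHIR. The fibroblast genes Lum and Dcn were between 18.5 and 42.7 on all 6 arrays, near the lowest value of the table. Col1a1 was at 370 in EpiLC and 101 in mESC with CHIR and PD, against 165 and 80.8 with CHIR. Pdgfrb in EpiLC was at 208 with CHIR and PD, 203 with CHIR and 102 untreated. With PD added to CHIR, 5 of the 9 were higher in the fit and 4 were lower. Of the 6 trophoblast markers 3 (Krt7, Krt8 and Krt18) were higher on both PD arrays than on all others (5.34% of all genes) and 3 were not. With PD added to CHIR, 5 of the 6 were higher in both states (24.9% of all genes). The other, Cdx2, was at 111 in mESC with CHIR and PD, against 273 in mESC with CHIR. In EpiLC Cdx2 was at 260 with CHIR and PD, against 143 with CHIR. The summed intensity of the 6, most of it Krt8 and Krt18, was 3845 in EpiLC and 4045 in mESC with CHIR and PD, against 1970 in EpiLC and 2272 in mESC with CHIR. The part of these markers in the higher Jun level was not tested.

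With CHIR alone the members had small fitted differences, in part because the states differed in sign. At a limma adjusted p under 0.05 0 of 9 changed, as did 0% of all genes, and at an unadjusted p under 0.05 0 of 9 changed (7.27% of all genes). The fitted differences lay between -0.24 (Egr1) and 0.09 (Fos). In single pairs of arrays 0 of 9 were at least 2-fold different in EpiLC (2.7% of all genes) or in mESC (0.338%). Fos had the largest differences, 0.80 in EpiLC and -0.62 in mESC, which cancel in the fitted value. In all, 6 of 9 had opposite signs in the states (42.5% of all genes).

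Between the states, Egr1 and Phlda1 were higher in EpiLC under all 3 treatments, as were 21.8% of all genes, and 0 members were lower under all 3 (24.9%). Egr1 was higher in EpiLC by 0.32 with CHIR and PD, by 1.65 with CHIR and by 1.49 without treatment. The first of these compares values near the lowest of the table, and was 0.56 or 0.12 with the constant at 4 or 64. With CHIR and PD 0 of 9 members differed by 2-fold between the states (6.39% of all genes), or 1, Phlda1 (1.08), with the constant at 4. Egr1 was the only member at least 2-fold higher in EpiLC with CHIR (2.45% of all genes) and without treatment (1.47%). The fitted difference of Egr1 was 1.16 (SE 0.27, limma adjusted p = 0.0588). This adjusted p was 0.0478 after quantile normalization, 0.125 with the constant at 64 and 0.391 with no moderation. Without either array with CHIR and PD the difference was 1.57 (adjusted p = 0.00467), without either with CHIR 0.91 (0.163) and without either untreated array 0.99 (0.182). Phlda1 had a fitted difference of 0.51 (SE 0.15, limma adjusted p = 0.1). At the limma threshold 0 of 9 members changed, whereas 4.15% of all genes rose and 4.15% fell, and at an unadjusted p under 0.05 2 members were higher (11.8%) and 0 lower (12.1%). Of the 40 other immediate early genes 4 rose in EpiLC (Atf3, Nab1, Srf and Trib1) and 3 fell (Id2, Ier5l and Plk3). Nab1, which encodes a corepressor that binds Egr proteins, rose by 0.88 (SE 0.11, limma adjusted p = 0.0102), and Srf rose by 0.64 (SE 0.11, limma adjusted p = 0.0229).

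By Pearson correlation of log2 intensity over the 6 arrays, the genes most like Egr1 were Spred3 (r = 0.99), Cyria (0.99), Psors1c2 (0.98) and Tmem59l (0.97), of 1938 genes whose SD was at least 0.5. Spred3, of the Sprouty-related family that dampens ERK activation, was at 119.9 with CHIR and PD, 915 with CHIR and 912 untreated in EpiLC. In mESC Spred3 was at 99.1, 356 and 318 in the same order. Those most like Phlda1 were Wasf1 (0.99), Jade2 (0.97), Elmo1 (0.97) and Lmo4 (0.96). For each of Egr1 and Phlda1 8 genes reached an r of 0.95, and over 6 arrays that share their cells and treatments such values describe a shape and nothing more.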

How the data were processed

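Per the series' design text, total RNA of 6 cultures was isolated on RNeasy columns, labelled with the WT PLUS kit, hybridised to Mouse Gene 2.0 ST arrays and analysed by the authors in GeneSpring GX 11.5. The deposited values are linear intensities, and the sources used here name neither a normalization method nor a genome build. The table held 33793 probes, of which 23521 had 1 gene symbol, 1814 several and 8458 none listed. Log2 intensities of probes with 1 symbol were averaged per symbol (22180 genes), with no filter. The additive model of state and treatment used limma 3.58.1 under R 4.3.3, two-sided, with Benjamini-Hochberg adjustment over all genes and a threshold of 0.05. It was tested on simulated data. Single pairs of arrays give sizes only, with 2-fold as the mark. With 1 array per group and no statement that cultures were separate, p-values do not measure a spread between replicates. They rest on the departure of these arrays from additive effects of state and treatment, with moderation over all genes.

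The members and gene lists were chosen with earlier results of these data known. In the lists, 5 older symbols were updated through RefSeq synonyms. Genes were named as all members, from up to 4 genes per list with the largest difference with PD added to CHIR (others of these are not reported here), and for likeness the 4 highest correlations with each of Egr1, Fos, Ier3 and Phlda1. Genes passing a threshold between the states, genes outside that rule and single markers were named after their values were seen. The 7 lists held the 10 members, 40 other immediate early genes, 11 ERK feedback genes, 7 SRF factors, 14 cytoskeletal SRF targets, 13 AP-1 partners and 11 heat shock genes (10 measured), beside cell type markers. The alternatives were 2 other constants in the intensities, the brightest probe, a filter on dim genes, quantile normalization, centring, other moderation, and leaving out each array. Promoters are RefSeq windows of GRCm38.p6.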

Additional observations from a re-analysis of the deposited data

Results flagged for a closer look

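Some members moved in opposite directions in EpiLC and mESC under the same treatment, which drew attention because 1 array stands for each state and none of these differences between states was tested. Opposite directions by any amount were seen for 3 of 9 members with PD added to CHIR (45.6% of all genes), 3 of 9 with CHIR and PD against untreated (42.7%) and 6 of 9 with CHIR against untreated (42.5%). With CHIR alone the log2 response in EpiLC minus that in mESC was 1.42 for Fos (0.80 in EpiLC, -0.62 in mESC), and 1.02% of all genes had a larger difference. In the same comparison it was 0.73 for Jun (0.30 and -0.44), 0.72 for Ier3 (0.35 and -0.37), -0.41 for Ier2 (-0.33 and 0.08), -0.14 for Junb (-0.12 and 0.03) and 0.12 for Phlda1 (0.08 and -0.04), EpiLC given before mESC. The share of all genes with a larger absolute difference was 5.47% for Jun, 5.73% for Ier3, 20.5% for Ier2, 63.2% for Junb and 68.3% for Phlda1.

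With PD added to CHIR the difference of responses was -0.57 for Egr3, 0.58 for Junb and -0.35 for Ier3. With CHIR and PD against untreated the difference of responses was -0.69 for Egr3 (-0.35 in EpiLC, 0.33 in mESC), 0.43 for Junb (0.15 in EpiLC, -0.28 in mESC) and 0.37 for Ier3 (0.09 in EpiLC, -0.28 in mESC). There 11.0%, 27.5% and 34.6% of all genes had a larger absolute difference, in that order. These comparisons share arrays.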

How the results depend on the processing

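No paired analysis was possible because each combination of state and treatment is 1 array with no replicate number; the model with state as a term already compares treatments within each state. The fitted differences of Egr1, Jun, Ier2 and Phlda1 with PD added to CHIR kept their direction under the 14 alternatives, with ranges of -3.09 to -1.45 for Egr1, 0.57 to 1.35 for Jun, -0.52 to -0.28 for Ier2 and -0.91 to -0.36 for Phlda1. Of 500 member differences recomputed in the fitted comparisons, 449 kept direction and side of the threshold, 7 (all of Egr1) passed it and 44 changed sign. Leaving out either array of a treatment gave the same fit between the states and between the other treatments. These counts therefore hold some results more than once. The filter on dim genes removed Egr3. With quantile normalization the differences that changed sign were 0.012 for Egr2 and 0.040 for Egr3 with CHIR and PD against untreated. Also among them were Phlda1 with CHIR (-0.017) and Egr2 between the states (0.0072). With centred arrays they were 0.0063 for Junb with PD added, 0.018 for Egr2 and 0.022 for Egr3 with both inhibitors, and 0.010 for Egr2 between states. Leaving out 1 array at a time turned the sign in these ranges, which include Fos with both inhibitors (-0.53 with all arrays) and Fos and Jun with CHIR. With PD added they were -0.27 to 0.23 for Junb, -0.40 to 0.23 for Egr3 and -0.36 to 0.18 for Ier3. With both inhibitors against untreated they were -0.32 to 0.19 for Junb, -1.08 to 0.018 for Fos, -0.37 to 0.17 for Ier3 and -0.32 to 0.30 for Egr3. With CHIR they were -0.61 to 0.13 for Egr1, -0.54 to 0.40 for Jun, -0.28 to 0.26 for Ier3, -0.16 to 0.20 for Phlda1, -0.13 to 0.28 for Egr3, -0.22 to 0.14 for Junb, -0.46 to 0.64 for Fos and -0.32 to 0.066 for Ier2. Between the states they were -0.018 to 0.00060 for Egr2, -0.20 to 0.088 for Junb, -0.061 to 0.30 for Ier3 and -0.46 to 0.25 for Fos.

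Counts of all genes past the limma threshold were 4 with PD added, 6 with CHIR and PD, 0 with CHIR and 1841 between states. Leaving out 1 array gave 3 to 71, 0 to 152, 0 to 52 and 945 to 1276. With trend and robust moderation PD added gave 7 and both inhibitors 53, and with no moderation these and the states gave 0, 0 and 0. A constant of 4 in place of 16 gave 1 for both inhibitors and 1016 between states, and a constant of 64 gave 1 with PD added and 1 for both inhibitors. With a constant of 4, genes at least 2-fold different were 894 (EpiLC) and 425 (mESC) with PD added, 1532 and 681 with both inhibitors, 1013 and 300 with CHIR, and 2236 between states under both inhibitors. With a constant of 64 they were 255 and 73, 511 and 157, 343 and 27 in the same order, and 804, 663 and 447 between states under both inhibitors, CHIR and no treatment. The deposited values gave 455 and 172, 911 and 325, 598 and 75, and 1418, 1127 and 835. With constants of 4 and 64 Egr1 was at -3.71 and -2.01 in EpiLC and -2.46 and -0.88 in mESC with PD added, so the size of its difference near the lowest intensity is set by that constant. The number of arrays and intensities near the lowest value limit the precision.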

Other observations

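Heat shock genes, which respond to handling of cells, had values on both sides of 0. With PD added to CHIR 0 of 10 passed the limma threshold and 2 were higher at an unadjusted p under 0.05 (2.94% of all genes), namely Hspa1b (0.65, SE 0.19) and Hspa1a (0.53, SE 0.13), both inducible Hsp70 genes. Hspa1b was at 97.8 in EpiLC and 138 in mESC with CHIR and PD, 65.5 in EpiLC and 83.8 in mESC with CHIR, and 135 in EpiLC and 119 in mESC without treatment, so the lowest values were those with CHIR alone. The summed intensity of the 10 genes was 8178 in EpiLC with CHIR and PD, 8359 in EpiLC with CHIR and 10681 in untreated EpiLC, against 10214 to 10403 on the mESC arrays.

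Fos and Ier3 had no close match in shape over the 6 arrays. Of 1939 genes compared, 0 reached an r of 0.95 with either gene. The nearest to Fos were Ada (r = 0.87), Gna14 (0.84), Chrna9 (0.83) and Tgm3 (0.80). The nearest to Ier3 were Ndufa4l2 (0.88), Gfra2 (0.86), Optc (0.86) and Gna14 (0.85). Gna14, near both, was at 56.1 in EpiLC with CHIR and PD, 244 in EpiLC with CHIR and 47.1 in untreated EpiLC, against 51.3 in mESC with CHIR and PD and 62.4 in mESC with CHIR. Among SRF and its cofactors 0 of 7 passed the limma threshold with PD added to CHIR. At an unadjusted p under 0.05 1 of them, Elk3, was lower (2.84% of all genes).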
